A study of Mus musculus with 23 samples.

Results

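The receptors for glutamate, GABA, glycine and acetylcholine were followed through mouse retinal organoids by RNA sequencing. Members were the protein-coding genes of the deposited tables whose symbols belong to the AMPA, kainate, delta, NMDA and metabotropic glutamate, GABA-A, GABA-B, glycine, nicotinic and muscarinic receptor families, leaving out alternative scaffolds. This gave 69 of 52143 genes, with 17 GABA-A, 16 nicotinic, 7 NMDA, 7 metabotropic glutamate, 5 glycine, 5 muscarinic, 4 AMPA, 4 kainate, 2 GABA-B and 2 delta genes. Grm6, Grik1, Gabrr1 and Gabrr2 match the same symbols but were left out by the rule.

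The organoids came from 1 clone of induced pluripotent stem cells that carries Nrl-GFP, a reporter of the rod lineage, and the RNA came from neural retina dissected out of them. From day 10 the cultures received bovine serum albumin (BSA) alone, or linoleic acid (LA) or docosahexaenoic acid (DHA) bound to BSA at 26 µM. There were 2 libraries each at day 26 in BSA, LA and DHA without FGF1, and 3 libraries each at day 32 in BSA, LA and DHA without FGF1. At day 32 with FGF1, a growth factor given at 200 ng/ml from day 26, there were 3 libraries in BSA, 3 in LA and 2 in DHA. All groups had taurine, 9-cis retinal and insulin-like growth factor 1 until day 26. From day 26 onward non-essential amino acids, B27 supplement without vitamin A and serum were added, so the difference between days holds a change of medium as well as age. The labels call the replicates biological but do not say whether they came from separate differentiations, so p-values measure the spread between these samples.

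The libraries fell into a deeper and a shallower set. The 12 deeper libraries held 16029580 to 20510550 counts, 3.02% to 4.24% of them mitochondrial, and comprise the 6 day 26 libraries together with the first 2 replicates from every FGF1 group. The 11 shallower libraries held 10405663 to 11888224 counts, 5.55% to 12.5% of them mitochondrial, and comprise the 9 day 32 libraries grown without FGF1 together with the last replicate (3) of the BSA and LA groups given FGF1. The authors' normalized table omits 5 libraries, each from the shallower set. Day 26 and day 32 without FGF1 therefore cannot be told apart from library set, and tests between groups were made within 1 set or within blocks that do not mix sets. In day 32 with FGF1 against day 26, called the step to day 32 here, age, medium and FGF1 change together.

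As background, AMPA, kainate and NMDA receptors are tetrameric cation channels opened by glutamate, whereas metabotropic receptors act through G proteins. GABA-A and glycine receptors are pentameric chloride channels that carry most fast inhibition in the retina, and GABA-B receptors are heterodimers coupled to G proteins. Photoreceptors and bipolar cells release glutamate, most amacrine cells release GABA or glycine, and starburst amacrine cells also release acetylcholine. Several of these families exchange subunits as neurons mature, as when the GluN2A subunit joins GluN2B in NMDA receptors.

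Levels of different genes were compared as CPM (counts scaled to library size) per kilobase of transcript, averaged over all 23 libraries of both sets. Gria2, the AMPA subunit that limits calcium entry, stood highest at 47.3 CPM per kb, next to Gabbr1, the agonist-binding GABA-B subunit, at 46.0 CPM per kb. Gria4 stood at 32.4 and the GABA-A gene Gabra3 at 22.8 CPM per kb. Further family leaders were Glrb, the glycine receptor beta subunit, at 18.2, the kainate subunit gene Grik5 at 16.0, Grm7 at 9.71, the nicotinic beta2 gene Chrnb2 at 8.73, Grin1, the obligatory NMDA subunit, at 5.56, and Chrm2 at 1.37 CPM per kb. The order of Gria2 and Gabbr1 is not fixed, since at day 26 Gabbr1 averaged 55.7 ± 6.67 and Gria2 34.5 ± 3.95 CPM per kb (SD, n = 6). In other families too the leader depended on the group. At day 26 Chrm3 stood at 0.770 and Chrm2 at 0.256, and Glra2 at 8.49 and Glrb at 5.70 CPM per kb. At day 32 without FGF1, in the shallower set, Grik2 stood at 16.2 and Grik5 at 5.94 CPM per kb. Grin2b (3.87) there stood just above Grin1 (3.64), and Chrnb4 (6.91) just above Chrnb2 (6.60). Muscarinic genes were low as a family, with a summed level of 5.27 to 8.91 CPM at day 26, against 361 to 465 CPM for AMPA genes.

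At the other end 11 members averaged under 0.5 CPM. They include the muscle-type nicotinic genes Chrna1, Chrnd, Chrne and Chrng, the hair-cell nicotinic genes Chrna9 and Chrna10, and Gabra6, which is typical of cerebellar granule cells. The list of 7 skeletal muscle markers summed to 4.45 to 5.71 CPM at day 26 and 3.46 to 6.45 CPM at day 32 with FGF1. The filter on low counts passed 60 of the 69 members in the deeper libraries and 58 in the shallower ones. The 9 members that did not pass in the deeper set were the GABA-A genes Gabra6 and Gabrp, the muscarinic gene Chrm5, and the nicotinic genes Chrna1, Chrna9, Chrna10, Chrnd, Chrne and Chrng.

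At the step to day 32 the receptor genes changed in both directions. Of the 60 members tested, 21 were higher and 6 lower at an adjusted p under 0.05, which is 45.0% of them, where 28.7% of the 20111 genes tested passed (14.6% higher and 14.1% lower). The median log2 difference of the tested members was 0.06, beside 0.00 for all genes. Between 20 and 29 members passed when each of the 12 libraries was left out in turn, and 16 passed in a fit of all 23 libraries, which joins the deeper and shallower libraries of the FGF1 groups and called 9.47% of all genes. One member, Glra1, passed the filter on low counts through its day 32 libraries alone and so had to be higher, and of the other 59 members 20 were higher and 6 lower (44.1%). In 16 members the 6 day 32 libraries did not overlap the 6 day 26 libraries, 13 with all day 32 libraries above and 3 with all below. Such separation held for 16.3% of all genes tested, and without Glra1 for 15 members. Among the rises were 3 of the 4 glycine genes other than Glra1, 3 of 4 muscarinic and 4 of 10 nicotinic genes and 1 each of the AMPA, NMDA and GABA-B genes, and among the falls were 2 of 4 kainate genes and 1 nicotinic gene. In bulk tissue a lower level from fewer cells of a type cannot be told apart from less RNA per cell.

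**Figure D1:**
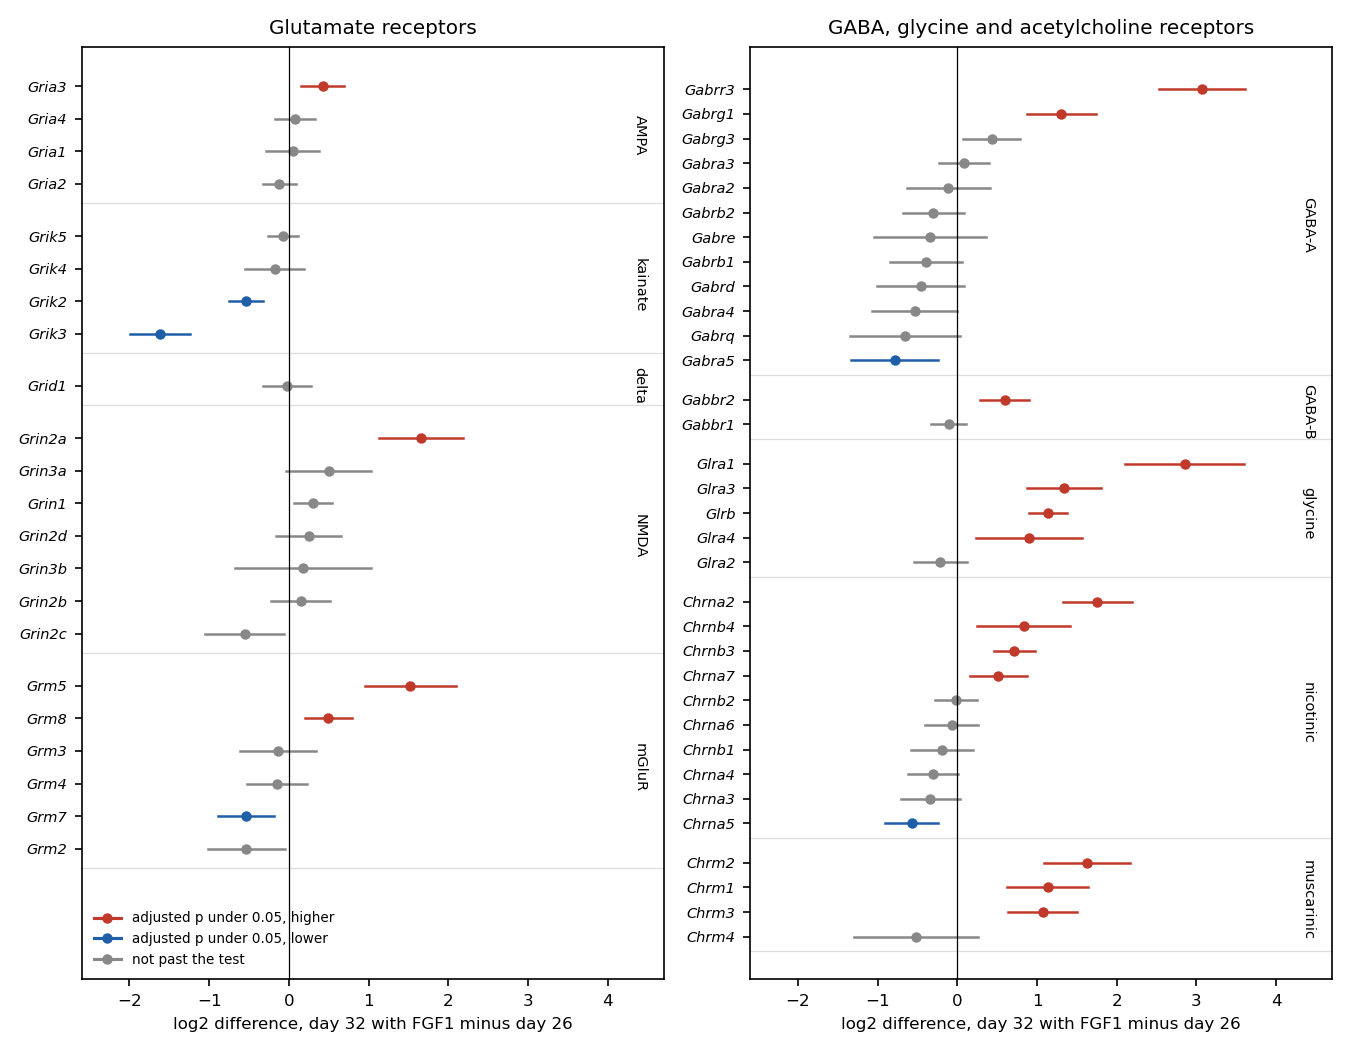
Log2 difference of the tested receptor genes reported here at the step to day 32 (x axis), day 32 with FGF1 minus day 26 in 6 against 6 deeper libraries, with 95% intervals as bars, ordered within families (y axis). Red and blue points passed the adjusted p of 0.05 as higher or lower. Gabrr3 (3.07) and Glra1 (2.85, passed the filter through day 32 alone) lie farthest right and Grik3 (−1.62) farthest left, and mGluR marks the metabotropic glutamate genes.

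Among AMPA receptor genes, which encode the main fast glutamate channels, 1 of 4 passed the test. Gria2 stood at 180.4, 203 and 239 CPM at day 26 against 148, 204 and 229 CPM at day 32 with FGF1 (lowest, median and highest of 6 libraries, the form used from here on), and the groups overlapped. Its log2 difference was −0.12 ± 0.09, adjusted p = 0.389 (± standard error, edgeR). Gria1 and Gria4 differed by 0.05 ± 0.15 and 0.08 ± 0.11 and did not pass the test. Gria3 rose from a median of 33.6 to 45.6 CPM (0.42 ± 0.12, adjusted p = 0.0234), with overlapping groups. The Gria3 call was lost when replicate 2 of BSA at day 26, or replicate 2 of BSA or replicate 1 of LA at day 32 with FGF1, was left out (adjusted p up to 0.0722).

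Each AMPA gene carries a pair of alternative exons, flip and flop, which encode a stretch of the receptor that sets how fast it desensitises. The exons of Gria1 and Gria2 are shown as examples. In both genes, and also in Gria4, the share of the forms differed between the groups while the total level did not pass the test. The exons shown are taken from GENCODE M21 on GRCm38, are 115 bases long and differ at 36 bases, which are in capitals.
Gria1 flip, chr11:57310608-57310722, plus strand: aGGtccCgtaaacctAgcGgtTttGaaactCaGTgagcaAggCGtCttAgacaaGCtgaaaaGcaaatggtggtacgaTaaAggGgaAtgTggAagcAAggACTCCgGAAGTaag
Gria1 flop, chr11:57309769-57309883, plus strand: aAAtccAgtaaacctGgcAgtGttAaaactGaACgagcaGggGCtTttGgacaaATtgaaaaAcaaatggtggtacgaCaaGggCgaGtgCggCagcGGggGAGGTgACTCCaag
Gria2 flip, chr3:80690404-80690518, minus strand: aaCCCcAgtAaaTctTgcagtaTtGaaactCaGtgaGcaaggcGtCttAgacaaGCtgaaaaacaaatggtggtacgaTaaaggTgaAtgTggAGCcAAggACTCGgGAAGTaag
Gria2 flop, chr3:80691320-80691434, minus strand: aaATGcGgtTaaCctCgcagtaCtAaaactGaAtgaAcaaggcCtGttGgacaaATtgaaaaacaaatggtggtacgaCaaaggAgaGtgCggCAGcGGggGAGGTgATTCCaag

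The flop share was the percent of flop among the deposited transcript counts of flip and flop forms, per length. In Gria1 it was 30.5% and 36.4% in BSA, 34.0% and 38.5% in LA and 39.0% and 37.5% in DHA at day 26. At day 32 with FGF1 it was 49.0% and 59.5% in BSA, 40.3% and 44.7% in LA and 56.0% and 38.1% in DHA. Every day 32 library but replicate 2 of DHA lay above all day 26 libraries. The mean rose from 36.0% ± 3.23 to 48.0% ± 8.53 (SD, n = 6; two-sided exact permutation test within media, p = 0.0185, BH-adjusted over 4 genes p = 0.0494).

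In Gria4 the mean flop share rose from 59.0% ± 4.39 to 64.1% ± 2.05 (SD, n = 6; exact permutation p = 0.037, adjusted p = 0.0494). In Gria2 it moved the other way, from 23.9% ± 3.51 to 20.3% ± 2.03 (SD, n = 6; exact permutation p = 0.037, adjusted p = 0.0494). Gria3 stood at 32.0% ± 9.38 and 39.9% ± 11.1 and did not pass (SD, n = 6; exact permutation p = 0.25). The Gria4 and Gria2 groups overlapped. This test was chosen after the data had been seen. The smallest p that the 216 arrangements allow is 0.00926, and 3 of the 4 adjusted values lie just under 0.05. The transcripts compared held 99.3% to 100% of the Gria1 counts per library, but 53.1% to 66.2% for Gria2, 72.1% to 94.8% for Gria4 and 6.19% to 77.4% for Gria3. They also differ outside the exon, so the share is that of annotated transcripts and not of exon reads. In the 11 shallower libraries the Gria1 share ran from 7.64% to 65.9%. The Gria2 share there was 29.9% to 50.8% and the Gria4 share 67.2% to 95.6%, where day and library set cannot be told apart.

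**Figure D2:**
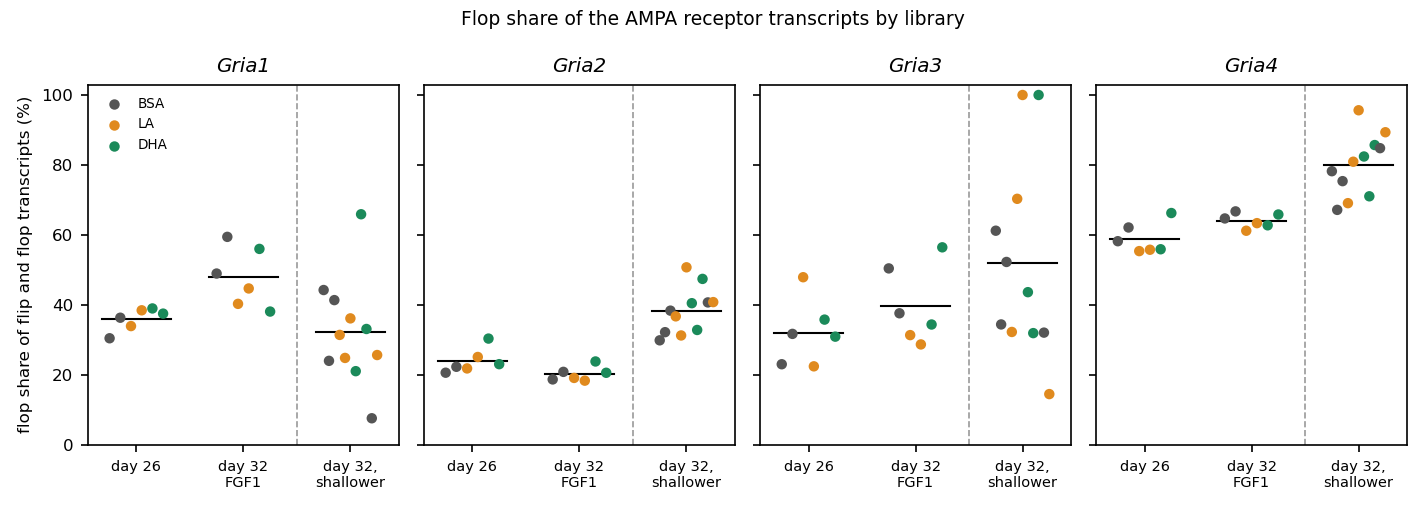
Flop share of the flip and flop transcripts (y axis, percent) of each AMPA receptor gene, 1 point per library coloured by medium, with the mean of each group as a line. The 12 deeper libraries lie left of the dashed line and the 11 shallower right of it. The Gria1 mean goes from 36.0% at day 26 to 48.0% at day 32 with FGF1 in the deeper libraries, and the shallower libraries scatter widely.

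Both calls among the 4 kainate receptor genes of the rule were falls. Grik1, the kainate gene left out by the rule, rose over the same step. It went from a median of 5.14 to 19.6 CPM without overlap (2.02 ± 0.13, adjusted p = 2.3e-06). Grik3, which encodes the GluK3 subunit and lies at chr4:125490700-125714173 (GRCm38), stood at 53.3, 59.0 and 92.9 CPM at day 26 against 16.4, 22.1 and 25.9 CPM at day 32 with FGF1, and no libraries overlapped. It was 3.07-fold lower (−1.62 ± 0.17, adjusted p = 4.7e-05), the largest fall among the 60 members tested. Grik2, the gene of GluK2, stood at 57.4, 64.3 and 79.1 CPM at day 26 against 37.2, 44.7 and 52.8 CPM at day 32 with FGF1 and also fell (−0.54 ± 0.10, adjusted p = 0.00172), with all 6 day 32 libraries below all 6 of day 26. Grik5, the gene of the auxiliary-type subunit GluK5, differed by −0.07 ± 0.09 and did not pass. As a share of the 4 kainate genes per length, without Grik1, Grik3 thus went from 13.5%, 14.3% and 21.7% at day 26 to 4.87%, 6.85% and 7.55% at day 32 with FGF1.

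Of the delta receptor genes, whose products organise synapses with cerebellins, Grid1 differed by −0.02 ± 0.14 and did not pass.

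Among NMDA receptor genes the rise was in Grin2a, the gene of the GluN2A subunit. Grin2a stood at 1.47, 2.64 and 4.56 CPM at day 26 against 4.22, 10.1 and 12.4 CPM at day 32 with FGF1, 3.15-fold higher (1.66 ± 0.24, adjusted p = 4.3e-04). Both DHA libraries were the lowest of day 32 (4.22 and 6.04 CPM), and replicate 1 of them lay within the range of day 26. Grin2b, the subunit gene that leads early in development, stood at medians of 47.7 and 52.9 CPM and did not pass (0.15 ± 0.17, adjusted p = 0.566). Per length, Grin2a made up 2.19%, 4.17% and 5.84% of the 4 GluN2 genes at day 26 and 6.48%, 12.4% and 14.1% at day 32 with FGF1, so the groups did not overlap on this scale. Grin1 missed the test narrowly (0.30 ± 0.11, adjusted p = 0.052).

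Of the metabotropic glutamate genes, Grm5, whose receptor couples to Gq, rose. It stood at 2.74, 3.23 and 4.22 CPM at day 26 against 5.81, 8.07 and 24.6 CPM at day 32 with FGF1 (1.53 ± 0.26, adjusted p = 0.00115), with no overlap. The high Grm5 value was replicate 2 of LA, and without that library the log2 difference was 1.19. The group II genes Grm2 (−0.54 ± 0.22) and Grm3 (−0.13 ± 0.22) did not pass. In group III, whose receptors mostly act presynaptically, Grm8 rose and Grm7 fell, both with overlap. Grm8 stood at 7.20, 9.78 and 10.8 CPM at day 26 against 10.6, 12.7 and 16.1 CPM at day 32 with FGF1 (0.50 ± 0.14, adjusted p = 0.0175), and Grm7 at 28.6, 36.9 and 39.3 CPM at day 26 against 16.6, 23.7 and 31.8 CPM at day 32 (−0.54 ± 0.16, adjusted p = 0.0269). Grm4 did not pass (−0.15 ± 0.17). The Grm7 call was lost in 7 of the 12 fits that each left out 1 library (adjusted p up to 0.078). The Grm8 call was lost without replicate 2 of BSA at day 26 and without replicate 1 of LA with FGF1 (adjusted p up to 0.061).

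GABA-A genes showed the largest single rise among the members tested. Gabrr3, which encodes the rho3 subunit of the ionotropic receptors once called GABA-C and lies at chr16:59407332-59464504, stood at 1.52, 2.61 and 6.62 CPM at day 26 against 22.7, 26.9 and 29.2 CPM at day 32 with FGF1. Every day 32 library was above every day 26 library, and the gene was 8.37-fold higher (3.07 ± 0.25, adjusted p = 8.5e-06). Gabrg1 also rose, from a median of 1.68 to 4.09 CPM (1.31 ± 0.20, adjusted p = 5.7e-04), with the groups just overlapping. Gabra5 fell (−0.79 ± 0.25, adjusted p = 0.035), at medians of 2.17 and 1.096 CPM, and the call was lost in 8 of the 12 fits that left out 1 library.

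Many GABA-A genes lie in clusters. On chromosome 5 (70751047 to 72149037) Gabrg1 rose, whereas Gabra2 (−0.11 ± 0.24), Gabra4 (−0.53 ± 0.24) and Gabrb1 (−0.39 ± 0.21) did not pass. Differences between neighbours were not tested. Of the GABA-B genes, Gabbr2, whose product couples the receptor to G proteins, stood at 21.9, 34.1 and 38.6 CPM at day 26 against 39.1, 50.2 and 54.4 CPM at day 32 with FGF1 and rose without overlap (0.60 ± 0.14, adjusted p = 0.00789), and Gabbr1 did not pass (−0.11 ± 0.10).

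Of the glycine receptor genes, 3 of the 4 other than Glra1 rose. Glrb, which anchors the receptor to gephyrin and lies at chr3:80843599-80913660, stood at 12.1, 14.2 and 17.5 CPM at day 26 against 25.6, 29.0 and 40.5 CPM at day 32 with FGF1, 2.20-fold higher with no overlap (1.13 ± 0.11, adjusted p = 2.5e-05). Glra3 stood at 1.36, 1.83 and 1.97 CPM at day 26 against 3.08, 4.09 and 6.29 CPM at day 32 with FGF1, also without overlap (1.34 ± 0.21, adjusted p = 7.3e-04). Glra1, the alpha1 gene of adult receptors, stood at 0.0524, 0.130 and 0.270 CPM at day 26 against 0.943, 1.11 and 1.22 CPM at day 32 with FGF1. These are few reads, 1.14 to 5.05 counts per library at day 26 and 18.0 to 27.1 at day 32 with FGF1, and since the gene passed the filter through its day 32 libraries alone, its levels are a description. Glra4 stood at 0.270, 0.435 and 0.699 CPM at day 26 against 0.671, 0.821 and 1.06 CPM at day 32 with FGF1 and rose with overlap (0.90 ± 0.30, adjusted p = 0.0437). It rests on 4.51 to 12.6 counts per library at day 26, and its call was lost in 9 of the 12 fits that left out 1 library, and also with DESeq2, with a GC offset and without the filter on low counts. Glra2, the alpha gene that leads in immature neurons, stood at medians of 26.9 and 23.0 CPM and did not pass (−0.21 ± 0.15, adjusted p = 0.327). Glra2 made up 90.9%, 93.5% and 94.6% of the 4 alpha genes per length at day 26 and 76.3%, 81.6% and 84.6% at day 32 with FGF1, without overlap. The sum of the 4 includes Glra1, which went from a mean of 0.0754 to 0.514 CPM per kb, beside 0.276 to 0.692 for Glra3. Part of the lower Glra2 share was thus fixed by the filter, and the share is a description.

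**Figure D3:**
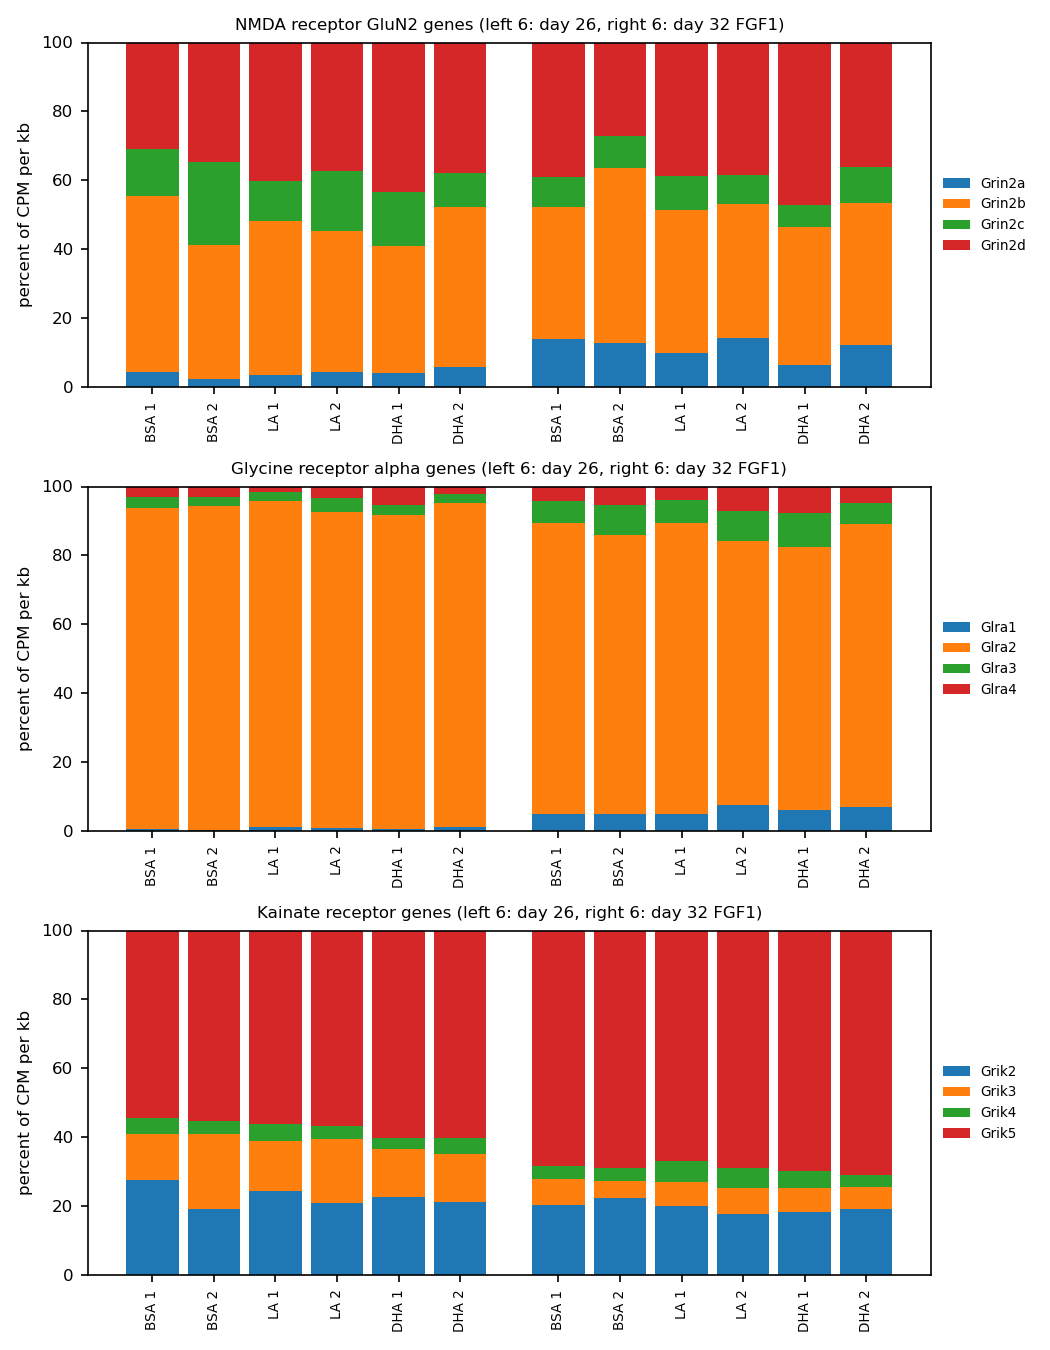
Share of each subunit gene (y axis, percent of summed CPM per kb) in 3 receptor types for the 12 deeper libraries, 1 bar per library (x axis, medium and replicate). The 6 bars at left are day 26 and the 6 at right day 32 with FGF1. Grin2a takes a larger share in every day 32 bar than in any day 26 bar, and Grik3 a smaller one. The kainate shares leave out Grik1. Glra1 also takes a larger share, but it passed the filter on low counts through day 32 alone, so its share is a description.

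Nicotinic genes rose in 4 and fell in 1 of 10 cases. Chrna2 stood at 1.50, 1.86 and 2.30 CPM at day 26 against 4.51, 6.18 and 7.91 CPM at day 32 with FGF1, 3.38-fold higher without overlap (1.76 ± 0.20, adjusted p = 7.6e-05). Chrnb3 stood at 11.8, 12.4 and 14.2 CPM at day 26 against 16.6, 21.1 and 24.1 CPM at day 32 with FGF1 and also rose without overlap (0.72 ± 0.12, adjusted p = 8.6e-04), whereas its neighbour Chrna6 on chromosome 8, which joins it in receptors of ganglion cells, did not pass (−0.07 ± 0.15). In the cluster on chromosome 9 (54980880 to 55048779) 1 gene rose and 1 fell, each with overlap. Chrnb4 stood at 16.9, 23.1 and 42.8 CPM at day 26 against 19.9, 38.8 and 70.9 CPM at day 32 with FGF1 and rose (0.83 ± 0.27, adjusted p = 0.036), and Chrna5 stood at 5.70, 7.76 and 10.2 CPM at day 26 against 3.98, 5.18 and 6.15 CPM at day 32 and fell (−0.57 ± 0.15, adjusted p = 0.0158). Chrna3, between them, did not pass (−0.34 ± 0.17). Chrna7, the gene of the homomeric alpha7 receptor, stood at 3.06, 3.55 and 4.86 CPM at day 26 against 4.22, 4.81 and 7.17 CPM at day 32 with FGF1 and rose with overlap (0.51 ± 0.16, adjusted p = 0.0347). The calls for Chrnb4 and Chrna7 were lost in 9 and 10 of the 12 fits that left out 1 library, with adjusted p up to 0.125 and 0.113. The Chrnb4 call was also lost with DESeq2, with limma voom and with day and medium as added terms, and the Chrna7 call with a GC offset and without the filter on low counts. Chrnb2, the most abundant nicotinic gene per length over all 23 libraries, differed by −0.01 ± 0.12 and did not pass.

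Of the muscarinic genes, Chrm1, Chrm2 and Chrm3 all rose without overlap between groups. Chrm2, the gene of a Gi-coupled receptor, stood at 0.839, 1.51 and 2.26 CPM at day 26 against 2.61, 4.57 and 5.92 CPM at day 32 with FGF1 (1.63 ± 0.25, adjusted p = 5.7e-04). Of the genes whose receptors couple to Gq, Chrm1 stood at 1.21, 1.98 and 3.72 CPM at day 26 against 4.14, 4.43 and 5.46 CPM at day 32 with FGF1 (1.13 ± 0.23, adjusted p = 0.00385). Chrm3 stood at 1.67, 3.23 and 4.46 CPM at day 26 against 4.71, 6.55 and 7.71 CPM at day 32 with FGF1 (1.07 ± 0.20, adjusted p = 0.00199). Chrm4 stood at medians of 0.478 and 0.280 CPM and did not pass (−0.52 ± 0.36).

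**Figure D4:**
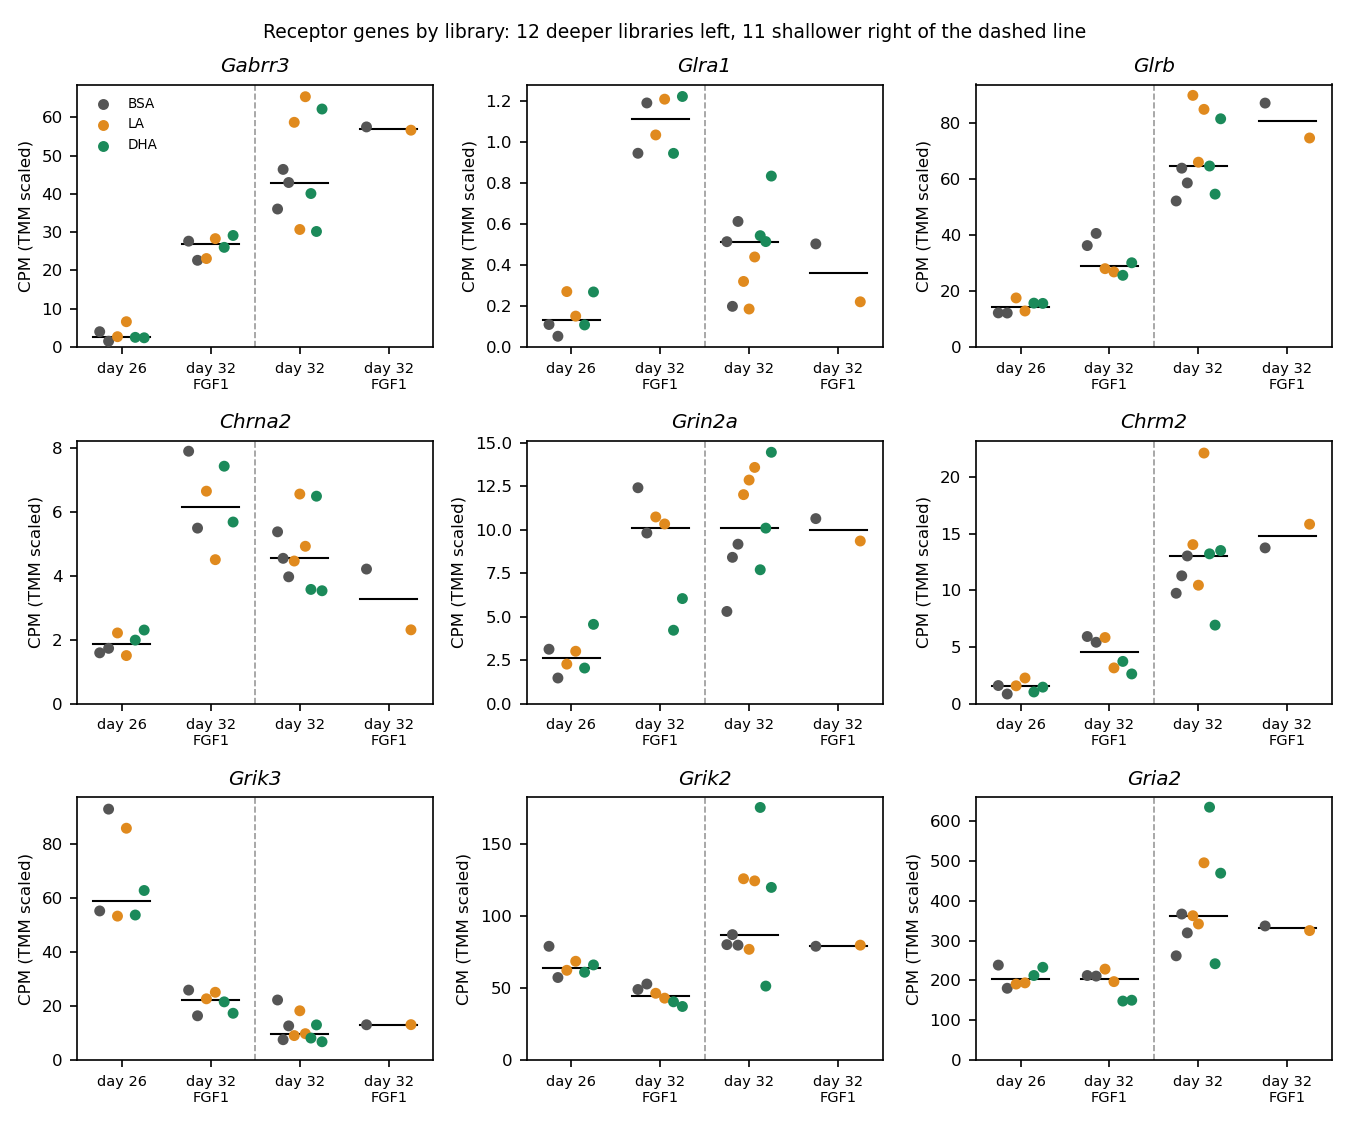
CPM of 9 receptor genes (y axis, from 0) in each library, coloured by medium, with group medians as lines. The 12 deeper libraries lie left of the dashed line and the 11 shallower right of it, and levels across the line cannot be told apart from library set. Within the deeper set, Gabrr3, Glrb, Chrna2 and Chrm2 are higher in all 6 day 32 libraries and Grik3 and Grik2 lower. Glra1 is also higher in all 6, but it passed the filter on low counts through day 32 alone and so had to be higher.

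The step was also estimated in each medium (2 against 2), from the same 12 libraries. Leaving Glra1 aside, 6 of 59 members passed in each of the 3 media, beside 3.07% of all genes, among them Gabrr3, Chrna2, Glrb and Grik3. In BSA, LA and DHA 13, 11 and 9 of these 59 passed, beside 6.83%, 5.16% and 10.4% of all genes. With Glra1 counted, 14, 12 and 10 members passed. With 2 libraries a group these counts rest on single libraries: leaving out either BSA library of day 26 or replicate 2 of BSA with FGF1 left 2 to 9 in BSA, any of the 4 LA libraries 1 to 6 in LA, and replicate 2 of DHA at either day 3 in DHA. Grin2a gave 2.29 in BSA, 2.04 in LA and 0.64 in DHA, and Gabrg1 2.05, 1.36 and 0.51. The median log2 difference of the members was 0.27 in BSA, 0.28 in LA and −0.23 in DHA, beside 0.00, 0.00 and −0.01 for all genes. These differences between media are tested further on.

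Markers of retinal cell types moved over the same step, at which 14.6% of all genes tested were higher and 14.1% lower. In the deeper libraries the summed level of 9 rod markers was 2534 to 4088 CPM at day 26 and 5200 to 9362 CPM at day 32 with FGF1, with 7 of 9 higher. Bipolar markers (7 of 8 higher) summed to 225 to 292 and 493 to 688 CPM, and Müller glia markers (4 of 6 higher) to 469 to 804 and 953 to 1736 CPM. Amacrine markers (1 higher and 4 lower of 8) summed to 625 to 1050 and 436 to 757 CPM, ganglion cell markers (1 higher and 1 lower of 9) to 97.0 to 147 and 96.2 to 149 CPM, and progenitor markers (1 higher and 5 lower of 6) to 359 to 563 and 145 to 262 CPM. Cone markers had 0 higher and 2 lower of 6 tested, and horizontal cell markers 2 higher and 2 lower of 6. No marker of these 8 lists stayed at or under 0.1 CPM in all 23 libraries. The part of cell composition in the receptor changes was not tested.

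The genes that make, load and clear the 4 transmitters were taken from a list of 25, 8 of which also stand in the marker lists. At the step 13 of the 25 were higher and 2 lower (median log2 difference 0.41), beside 14.6% and 14.1% of all genes tested. The largest rises were Slc1a3, the glial glutamate transporter GLAST (44.8, 56.8 and 78.6 CPM at day 26 against 209, 255 and 509 CPM at day 32, 2.32 ± 0.17, adjusted p = 4.9e-06), Slc17a7, the vesicular glutamate transporter of photoreceptors and bipolar cells (95.2, 124 and 149 CPM at day 26 against 299, 368 and 474 CPM at day 32, 1.66 ± 0.10, adjusted p = 1.2e-06), and Slc12a2, a chloride importer (0.89 ± 0.10, adjusted p = 5.9e-05). The 2 falls were both cholinergic, Slc18a3, the vesicular acetylcholine transporter (3.22, 5.67 and 9.81 CPM at day 26 against 0.581, 1.53 and 3.25 CPM at day 32, −1.85 ± 0.37, adjusted p = 0.00329), and Chat, the enzyme that makes acetylcholine (10.0, 13.3 and 20.1 CPM at day 26 against 1.16, 5.18 and 6.92 CPM at day 32, −1.61 ± 0.35, adjusted p = 0.00516). Over the step at which these cholinergic genes fell, 3 of 4 muscarinic genes (Chrm1, Chrm2 and Chrm3) and 4 of 10 nicotinic genes (Chrna2, Chrnb3, Chrnb4 and Chrna7) rose. The Chrnb4 and Chrna7 calls were lost in 9 and 10 of the 12 fits that left out 1 library. Chrna5 fell, and 6 of the 10 nicotinic estimates were negative.

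Auxiliary subunits and scaffolds, which set receptor traffic and gating, came from a list of 41. Of these, 13 were higher and 6 lower (median 0.07), beside 14.6% and 14.1% of all genes tested. The falls were thus near the share of all genes. The largest rises were the AMPA receptor partners Shisa9 (0.944, 2.45 and 4.06 CPM at day 26 against 12.2, 14.8 and 22.8 CPM at day 32, 2.79 ± 0.27, adjusted p = 2.4e-05) and Shisa6 (1.47 ± 0.28, adjusted p = 0.00222) and the nicotinic modulator Lynx1 (1.43 ± 0.19, adjusted p = 2.0e-04). The largest falls were Shisa7, a partner of AMPA and GABA-A receptors (57.9, 69.2 and 90.3 CPM at day 26 against 25.4, 31.0 and 48.0 CPM at day 32, −1.04 ± 0.14, adjusted p = 2.5e-04), Homer3, a scaffold of group I metabotropic receptors (−0.63 ± 0.11, adjusted p = 0.00107), and Gabarap, a trafficking factor of GABA-A receptors (−0.51 ± 0.13, adjusted p = 0.0143).

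The promoter windows, from 250 bases before to 50 after the start site, were available for 49 of the 69 members (57 windows, RefSeq on GRCm38.p6). TAATCC, the letters bound by the photoreceptor and bipolar factors CRX and OTX2, was searched on both strands and found in 4 of the 57 member windows (7.02%) and in 7.06% of 32851 windows of all genes. The windows of Gabrr3, the member that rose most, Grik3, the member that fell most, and Chrm2, whose window holds TAATCC (in capitals), are shown. Their GC content was 47%, 82% and 52.7%, beside a median of 52.7% over all windows. A match is a description of the letters and not a site.
Gabrr3 promoter, chr16:59407132-59407431, plus strand: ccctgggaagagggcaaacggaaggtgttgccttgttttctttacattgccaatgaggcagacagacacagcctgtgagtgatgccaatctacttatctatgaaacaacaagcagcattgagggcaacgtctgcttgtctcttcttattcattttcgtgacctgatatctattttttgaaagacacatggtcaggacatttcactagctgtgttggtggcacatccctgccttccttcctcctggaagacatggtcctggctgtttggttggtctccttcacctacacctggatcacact
Grik3 promoter, chr4:125490446-125490745, plus strand: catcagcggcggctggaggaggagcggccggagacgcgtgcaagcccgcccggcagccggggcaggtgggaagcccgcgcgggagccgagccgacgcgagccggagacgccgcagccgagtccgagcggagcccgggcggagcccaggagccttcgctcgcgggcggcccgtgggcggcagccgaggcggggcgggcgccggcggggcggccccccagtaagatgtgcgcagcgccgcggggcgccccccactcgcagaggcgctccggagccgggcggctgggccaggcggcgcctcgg
Chrm2 promoter, chr6:36387834-36388133, plus strand: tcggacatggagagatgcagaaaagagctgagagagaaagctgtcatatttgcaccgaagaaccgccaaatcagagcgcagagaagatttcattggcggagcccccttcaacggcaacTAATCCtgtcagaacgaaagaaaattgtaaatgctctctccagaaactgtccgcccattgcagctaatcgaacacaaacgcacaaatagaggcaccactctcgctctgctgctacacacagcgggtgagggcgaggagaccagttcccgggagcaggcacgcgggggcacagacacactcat

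FGF1 was compared with no FGF1 at day 32 within the shallower set, where 1 library in BSA and 1 in LA with FGF1 stand against 3 and 3 without. Both FGF1 libraries are among the 5 omitted by the authors. None of the 58 members tested passed with edgeR, beside 0% of 19484 genes (1 member and 931 genes had an unadjusted p under 0.05, and DESeq2 called 0 members and 16 genes). Chrnb3 led by unadjusted p, at 18.8 and 20.9 CPM with FGF1 against 26.2 to 34.4 CPM without (−0.59 [−1.16, −0.03], adjusted p = 0.867). Grm4 differed by −1.96 [−4.16, 0.23], adjusted p = 0.867. In a fit of all 23 libraries, which mixes the library sets, 13 members and 14% of all genes passed and Grm4 turned to 2.15. The brackets hold 95% intervals, whose median half-width over the members was 0.82. They are not adjusted for the number of genes, so differences well above that size could fail the adjusted test. The Grm4 interval was wider than that and held 0, so Grm4 failed without the adjustment too (edgeR, unadjusted p = 0.0746). The median difference of the members was −0.12, beside −0.09 for all genes.

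Side by side and without a test, the 9 libraries of day 32 without FGF1 gave 30.2 to 65.4 CPM for Gabrr3, 52.0 to 89.7 for Glrb, 6.93 to 22.1 for Chrm2 and 6.76 to 22.2 for Grik3. Gabrr3, Glrb and Chrm2 were above the day 26 range in all 9, and Grik3 was below it in all 9. Glra1 stood at 0.185 to 0.832 CPM in them, reaching into its day 26 range. Grik2, which fell at the step in the deeper set, stood at 51.4 to 176 CPM in them, reaching above its day 26 range. Gria2 stood at 242 to 636 CPM, and Grik5 at 8.72 to 44.2 CPM against 80.6 to 106 at day 26. Day and library set cannot be told apart in these values.

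LA and DHA are both polyunsaturated fatty acids, DHA being the longer omega-3 acid with more double bonds and LA the omega-6 acid, and both were given at 26 µM. The 3 pairs of media were compared at day 26, at day 32 with FGF1 and at day 32 without FGF1. No member passed in any of these 9 comparisons with edgeR, where at day 32 with FGF1 0.0149% of all genes (3) passed in LA against BSA and 0.00994% (2) in DHA against LA, and 0% in the other 7. At an unadjusted p under 0.05 there were 1, 1 and 2 members in LA against BSA, DHA against BSA and DHA against LA at day 26, 4, 14 and 17 at day 32 with FGF1, and 3, 0 and 1 at day 32 without FGF1. The 14 and 17 are 23.3% and 28.3% of the members tested, beside 2.71% and 7.61% of all genes. DESeq2 called 3 members in DHA against LA at day 32 with FGF1 and none in the others.

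At day 32 with FGF1 the receptor genes leaned lower in DHA. Of the 60 members tested, 52 had a lower estimate in DHA than in BSA (median log2 difference −0.34) and 48 a lower one than in LA (median −0.32), both against the same 2 DHA libraries. Over all genes tested 49.2% and 50.7% were lower, with medians of 0.00 and −0.01. LA against BSA had 33 of 60 lower (median −0.05). By value alone, both DHA libraries lay below all 4 BSA and LA libraries in 22 of 60 members, beside 7.62% of all genes, and above them in 0, beside 9.50% of all genes. At day 26 the same counts were 3 and 0, beside 5.35% and 4.21%. The 22 genes held all 4 AMPA genes, 4 NMDA, 4 metabotropic, 6 GABA-A, 2 kainate and 2 nicotinic genes and no glycine or muscarinic gene. With 2 libraries in DHA, traits of those cultures cannot be told apart from DHA.

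The AMPA genes show the pattern. Gria1 stood at 44.5 and 47.0 CPM in DHA, 129.7 and 73.7 in LA and 67.8 and 65.3 in BSA, and its difference from LA was −1.20 [−1.79, −0.61], adjusted p = 0.237. Gria2 stood at 148 and 150.4 CPM in DHA, 229 and 197 in LA and 212 and 211 in BSA, and differed from BSA by −0.52 [−0.88, −0.16], adjusted p = 1.00. Gria3 led against BSA, at 32.8 and 33.6 CPM in DHA and 50.2 and 59.8 in BSA (−0.75 [−1.22, −0.28], adjusted p = 1.00), and Gria4 differed by −0.60 [−1.04, −0.17], adjusted p = 1.00. None of these passed the adjusted test.

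Against LA, Gria1 was followed in unadjusted p by Grm3, a presynaptic and glial receptor gene, and Gabrb1, a GABA-A beta subunit gene. Grm3 stood at 3.42 and 2.79 CPM in DHA and 11.7 and 7.34 in LA (−1.66 [−2.51, −0.81], adjusted p = 0.254). Gabrb1 stood at 6.40 and 6.39 CPM in DHA, 20.5 and 12.7 in LA and 9.90 and 16.0 in BSA (−1.42 [−2.23, −0.62], adjusted p = 0.322 against LA). Gria1, Grm3 and Gabrb1 are the 3 members that DESeq2 called, beside 0.731% of all genes, and edgeR without a filter on low counts called 5, beside 1.48% of all genes. In LA against BSA the leading members were Grm5 (1.16 [0.22, 2.10], adjusted p = 1.00), Glrb (−0.46 [−0.87, −0.06], adjusted p = 1.00) and Gria1 (0.64 [0.06, 1.22], adjusted p = 1.00).

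Marker lists also differed among these 6 libraries. Their summed levels in DHA, LA and BSA were 6797 to 9362, 5200 to 5918 and 5412 to 8314 CPM for rods, 545 to 688, 499.5 to 518 and 493 to 574 CPM for bipolar cells, 436 to 622, 549 to 757 and 672 to 752 CPM for amacrine cells and 1652 to 1703, 1326 to 1624 and 1608 to 1767 CPM for general neuron markers. Cone markers summed to 23.8 to 40.1, 60.8 to 81.2 and 48.4 to 76.5 CPM in the same order, with both DHA libraries below the other 4, and all 6 cone markers tested had lower estimates in DHA than in BSA (median −0.90) and LA (median −1.04). Ganglion cell markers summed to 96.2 to 129.5, 122.7 to 149 and 113 to 144, horizontal cell markers to 382 to 424, 371 to 497 and 477 to 497, Müller glia markers to 960.3 to 1126, 1106 to 1736 and 953 to 1111, progenitor markers to 165 to 215, 166 to 262 and 145 to 189 and forebrain neuron markers to 4.94 to 10.4, 12.2 to 34.9 and 8.84 to 8.86 CPM. Mesenchyme markers summed to 11.04 to 22.3, 58.2 to 366 and 20.2 to 30.3 CPM and pigment epithelium markers to 1.34 to 1.63, 31.8 to 58.6 and 7.22 to 16.1 CPM, with Rpe65 at or under 0.1 CPM in all 23 libraries. Their part in the lower receptor levels was not tested.

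The change of the step between media was tested directly. In DHA against LA, 47 of 60 members changed less upward or more downward in DHA by estimate (median −0.27), led by Gabrb1 (−1.85 [−2.97, −0.74], adjusted p = 0.534), Gria1 (−1.35 [−2.17, −0.53], adjusted p = 0.56) and Gria2 (−0.76 [−1.27, −0.25], adjusted p = 0.585). In DHA against BSA the leaders were Gabrb1 (−1.63 [−2.74, −0.51], adjusted p = 1.00), Glrb (−0.84 [−1.42, −0.26], adjusted p = 1.00) and Gabrg1 (−1.54 [−2.62, −0.47], adjusted p = 1.00). In LA against BSA they were Glrb (−0.79 [−1.37, −0.21], adjusted p = 1.00), Grm5 (1.23 [−0.14, 2.59], adjusted p = 1.00) and Gria1 (0.72 [−0.10, 1.54], adjusted p = 1.00). No member and 0% of all genes passed with edgeR in these 3 tests, where 7, 6 and 1 members had an unadjusted p under 0.05, and DESeq2 called none of the members. So the smaller Grin2a and Gabrg1 rises in DHA are not shown to differ from those in the other media.

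**Figure D5:**
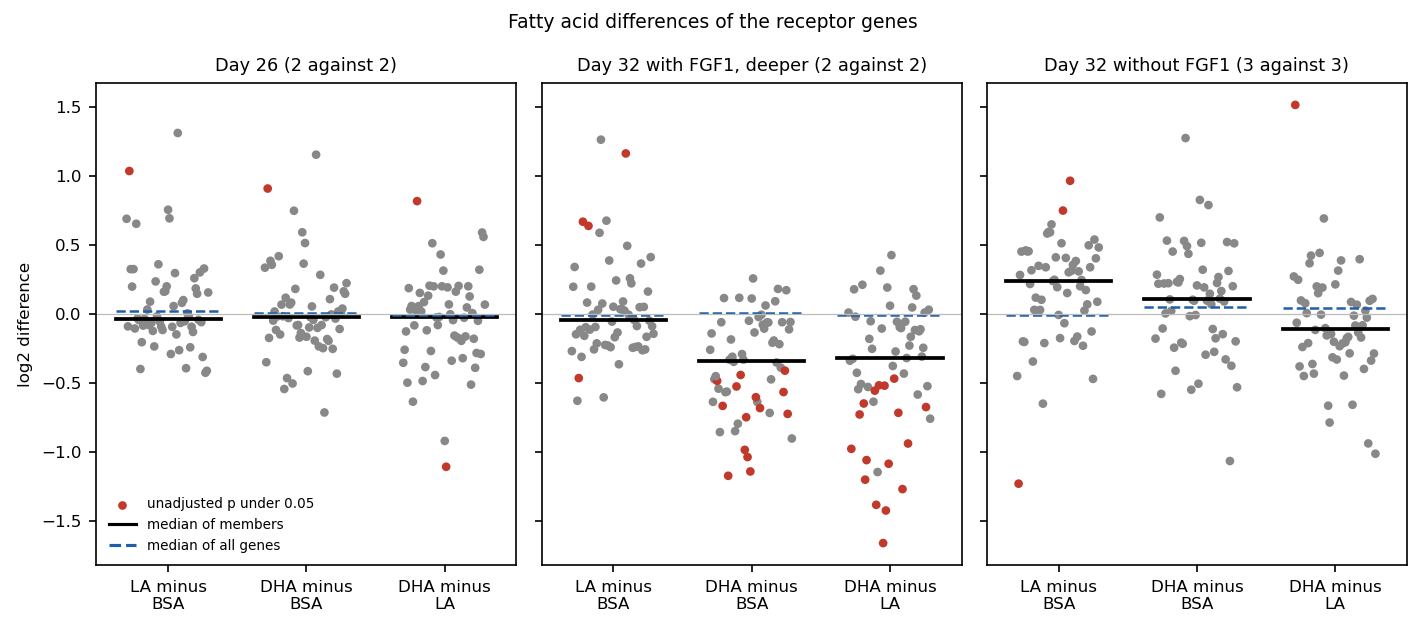
Log2 differences of the receptor genes between media (y axis) in 3 states, 1 point per gene and red where the unadjusted p is under 0.05, with the median of the members as a solid line and of all genes as a dashed line. At day 32 with FGF1 the members lie lower in DHA than in BSA and LA (medians −0.34 and −0.32), while at day 26 the medians are near 0, and no member passed the adjusted test.

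At day 26, 32 of 60 members were lower in DHA than in LA (median −0.02, all genes −0.01). The leading members by unadjusted p were Chrnb1, which was higher in DHA (0.82 [0.14, 1.49], adjusted p = 1.00), and Chrnb4 (−1.11 [−2.13, −0.08], adjusted p = 1.00) and Gabrr3 (−0.92 [−1.88, 0.04], adjusted p = 1.00), which were lower. Gabrg1 led at day 26 against BSA, both in DHA (0.91 [0.11, 1.71], adjusted p = 1.00) and in LA (1.03 [0.24, 1.83], adjusted p = 1.00), at 1.21 and 0.787 CPM in BSA, 2.43 and 1.65 in LA and 2.04 and 1.72 in DHA. In DHA against BSA it was followed by Glrb (0.36) and Grin2c (−0.71), and in LA against BSA by Gabrr3 (0.75) and Glrb (0.32). The Gabrr3 difference was −0.0055 without replicate 2 of LA.

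At day 32 without FGF1, with 3 libraries in each medium, 36 of 58 members were lower in DHA than in LA (median −0.11, all genes 0.04). Members leaned higher in both acids than in BSA, which 37 of 58 showed in DHA (median 0.11, all genes 0.05) and 43 of 58 in LA (median 0.24, all genes −0.01), by estimate and with the same BSA libraries. Gabre led in DHA against LA (1.51 [0.36, 2.66], adjusted p = 1.00), followed by Gria1 (−0.36) and Grin1 (−0.79). Grm5 led against BSA in both fatty acids, with 0.96 [0.17, 1.75], adjusted p = 1.00 in LA and 0.79 [0.00, 1.58], adjusted p = 1.00 in DHA. In LA against BSA it was followed by Gabre (−1.23) and Grin2a (0.75), and in DHA against BSA by Gabrb1 (0.82) and Gabra2 (0.70). The median half-width of the 95% intervals was 0.82 here, 0.65 at day 32 with FGF1 and 0.64 at day 26, so a missed test does not show that the acids acted alike.

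Averaged within blocks over all 23 libraries, where a block holds libraries of 1 day, 1 FGF1 state and 1 replicate number, no member and 0% of 21124 genes passed with edgeR in any of the 3 pairs. At an unadjusted p under 0.05 there were 3 members in DHA against BSA, 2 in LA against BSA and 5 in DHA against LA, and DESeq2 called none of the members. The leaders were Chrnb1 in both DHA against BSA (0.37 [0.06, 0.68], adjusted p = 1.00) and DHA against LA (0.43 [0.11, 0.75], adjusted p = 0.994), and Grm5 in LA against BSA (0.69 [0.15, 1.24], adjusted p = 0.981). They were followed by Gabbr2 (−0.23) and Chrm3 (−0.47) in DHA against BSA, Chrm2 (−0.51) and Gabra5 (−0.77) in DHA against LA, and Gabrg1 (0.51) and Grid1 (0.31) in LA against BSA.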

How the data were processed

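The members and the gene lists were chosen with earlier results of these data known. The authors deposited estimated counts per gene and per transcript for 23 libraries, and a table of normalized CPM signal for 18 of them, which was used only to see which libraries the authors kept. Trimmomatic 0.36, kallisto 0.45.0, edgeR and GRCm38.p6 are named in the submitters' processing notes, with no order of steps. The estimated counts were rounded, and genes were filtered by edgeR's filterByExpr within the deeper and the shallower set, which were told apart by total count. The labels do not name these sets.

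Counts were scaled by the trimmed mean of M-values (TMM) and tested with edgeR 4.0.16 (quasi-likelihood test, 1 mean per group, R 4.3.3), with Benjamini-Hochberg adjustment over all genes tested at 0.05. Alternatives used DESeq2 1.42.0, limma 3.58.1 and other settings. The fit was tested on simulated data with known changes. CPM were TMM-scaled, and transcript length was the count-weighted mean over GENCODE M21 transcripts, which cover 134456 of the 136550 in the table. Tables, exact tests and plots were made with Python 3.11.15, pandas 2.3.3, scipy 1.17.1 and matplotlib 3.10.9.

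The genes named are the members past the test in the step or the FGF1 comparison, the highest member per length of each family, the 3 smallest p values at 0.5 CPM or more in each comparison of media, and the 3 largest changes in each direction of the transmitter and auxiliary lists. Some of the genes this rule names are not reported here. Other members were named after their values were seen. Replicate numbers recur across groups. Among the groups of 3, the correlation of same-numbered deviations from the group means was over 0.1 in every pair for LA and DHA at day 32 without FGF1 (0.262, 0.593 and 0.397) and in neither pairing with BSA, and the block changed no call there. Groups of 2 give a single correlation per pair of groups (−0.123 to 0.351), which was not taken as pairing. Replicates differed beyond counting noise in every group. Intervals cover the spread between libraries.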

Additional observations from a re-analysis of the deposited data

How the results depend on the processing

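Of the counts of members called, 415 were within 1.5 times the count reported and 23 were not. A fit of all 23 libraries, which joins deeper and shallower libraries in the FGF1 groups, gave 16 for the step, 8 in BSA, 4 in LA and 1 in DHA, and 13 for FGF1. DESeq2 gave 16 for the step in DHA and 3 for DHA against LA at day 32 with FGF1, and limma voom 6 for the step in LA. Without the filter on low counts the calls were 18 for the step in DHA, 1 for DHA against LA at day 26, at day 32 with FGF1 5 for DHA against LA and 1 for LA against BSA, and for the change of the step 3 for DHA against LA and 1 for DHA against BSA. Leaving out each library in turn gave 20 to 29 for the step, 2 to 16 in BSA, 1 to 12 in LA and 3 to 11 in DHA, and 0 for all comparisons of media and of FGF1. Grm4 in the FGF1 comparison reversed to 2.15 in the fit of all 23 libraries, and Gabrr3 in LA against BSA at day 26 to −0.0055 without replicate 2 of LA (range −0.0055 to 1.62 over the libraries left out). For single genes, 1566 values kept direction and side of the threshold, 68 lost the call and 12 gained it. The causes were not tested.

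With the replicate number as a block, 27 members passed for the step (21 higher and 6 lower, with Glra4 lost at an adjusted p of 0.0518 and Grin1 gained at 0.0485), 16 in BSA, 13 in LA, 13 in DHA, and 0 for FGF1, each comparison of media and each change of the step. Without the replicate block, 0 passed in the 3 comparisons made within blocks. No count of calls moved by over 1.5 times with the block. With the numbers of DHA at day 26 crossed, chosen after seeing the data because the LA and DHA deviations there correlated at −0.123, 0 members passed in DHA against LA.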
